A study of Mus musculus with 2 samples.

Results

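The genes described here are the splicing regulators and neuronal RNA-binding proteins of the mouse hippocampus. They were chosen by name: every gene of the SR protein (Srsf), hnRNP, Rbfox, Nova, Ptbp, Celf, Mbnl, Elavl, Khdrbs, Qk, Srrm and Tra2 families with at least 1 transcript typed as protein coding. The rule used no measured value and found 62 genes among 55536 annotated genes, of which 21951 are protein coding. Total RNA was sequenced from hippocampus of female B6CASTF1/J mice aged 2 months, F1 hybrids whose parents are of the strains C57BL/6J and CAST/EiJ; the tissue type reads layer of hippocampus. There were 2 libraries in 1 group, called biological replicates 1 and 2, with 300 ng of RNA each. Both libraries share a donor record, so the labels do not say outright that they come from separate animals, and their spread may be technical in part. No treatment, genotype or age was compared, so values are given with the spread over both libraries and no p-value.

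Splicing regulators bind short motifs in pre-mRNA and decide which exons the spliceosome joins. SR proteins mostly promote the use of an exon and hnRNP proteins often repress it, while the Rbfox, Nova, Ptbp, Celf, Mbnl, Elavl, STAR and Srrm families give neurons and glia their own sets of isoforms. Many of these genes control themselves: their proteins promote inclusion of a "poison" exon with a premature stop codon in their own RNA, which sends the transcript to nonsense-mediated decay.

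Annotated genes held 29490900 expected counts in replicate 1 and 30691917 in replicate 2, and the common coefficient of variation that edgeR estimated between the libraries was 4.95% over 15509 genes. All 4 pan-neuronal markers and all 8 markers of the hippocampal fields were at 1 TPM or more (a level scaled to transcript length and to the library's total), with summed levels of 2101 and 2040 TPM and of 409 and 434 TPM in replicates 1 and 2. Some single field markers differed by a larger proportion than their sum. The authors' TPM intervals did not overlap between the libraries for Prox1, Calb1, Fibcd1 and Pcp4, higher in replicate 2, and for Grik4, higher in replicate 1. The TPM of Fibcd1 lay just outside its own interval in both libraries, so its interval is a weaker guide. The markers of cerebellum and hindbrain summed to 0.94 and 1.89 TPM, with Hoxb5 at 0 in both. Summed oligodendrocyte markers stood at 930 and 1022 TPM, and astrocyte markers at 365 and 400.2 TPM. Microglial markers summed to 90.2 and 87.5 TPM, endothelial markers to 46.0 and 41.3 TPM and oligodendrocyte precursor markers to 21.4 and 22.6 TPM. The libraries also differed in blood, with 327 and 581 TPM over 3 haemoglobin genes, and in Ttr of the choroid plexus, with 121 and 65.7 TPM. In RNA of a whole tissue, fewer cells of a type and less RNA per cell cannot be told apart.

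Nearly the whole set was expressed. In both libraries, 61 of the 62 genes reached 1 TPM (98.4%), against 58.2% of protein-coding genes. The median level of the 62 was 54.6 ± 0.110 TPM (SD, n = 2), beside 14.6 ± 0.0141 TPM over the 12779 detected protein-coding genes, and 56 of the 62 lay above that second median. Together they took 1.11% and 1.10% of the TPM of protein-coding genes in replicates 1 and 2. Expected counts of the 61 detected genes ran from 336 to 23112 in a library. In 17 of the 62, the expected count was not whole in a library (by more than 0.005), which shows that reads were divided between that gene and others. Levels of such genes, Hnrnpk, Hnrnpl, Hnrnpa1, Ptbp1 and Nova1 among them, are less certain than their spread shows.

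The highest level belonged to Hnrnpk, a protein that binds C-rich RNA, at 269 TPM in replicate 1 and 266 TPM in replicate 2. Srrm2, a large scaffold of nuclear speckles and a spliceosome component, had 270 and 259 TPM in the same order of libraries. Celf2 followed with 206 and 209 TPM, Hnrnpa2b1 with 204 and 210 TPM and Celf4 with 211 and 200 TPM. The values of Hnrnpk and Srrm2 overlapped, as did those of Celf2, Hnrnpa2b1 and Celf4, and the first pair lay above the other 3 genes in both libraries. Hnrnpl, which binds CA repeats, had 178 and 186 TPM, Hnrnpu had 172 and 171 TPM, Rbfox1 had 156 and 161.5 TPM, Qk had 146 and 150 TPM and Srsf5 had 147 and 140 TPM. Among these 10 highest genes, 4 are hnRNP proteins and 4 belong to the neuronal or glial families Celf, Rbfox and STAR. The set of 62 holds 20 hnRNP, 6 Celf, 3 Rbfox and 4 STAR genes, and an excess of any family was not tested. In all, 16 genes stood at 100 TPM or above in each library.

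**Figure D1:**
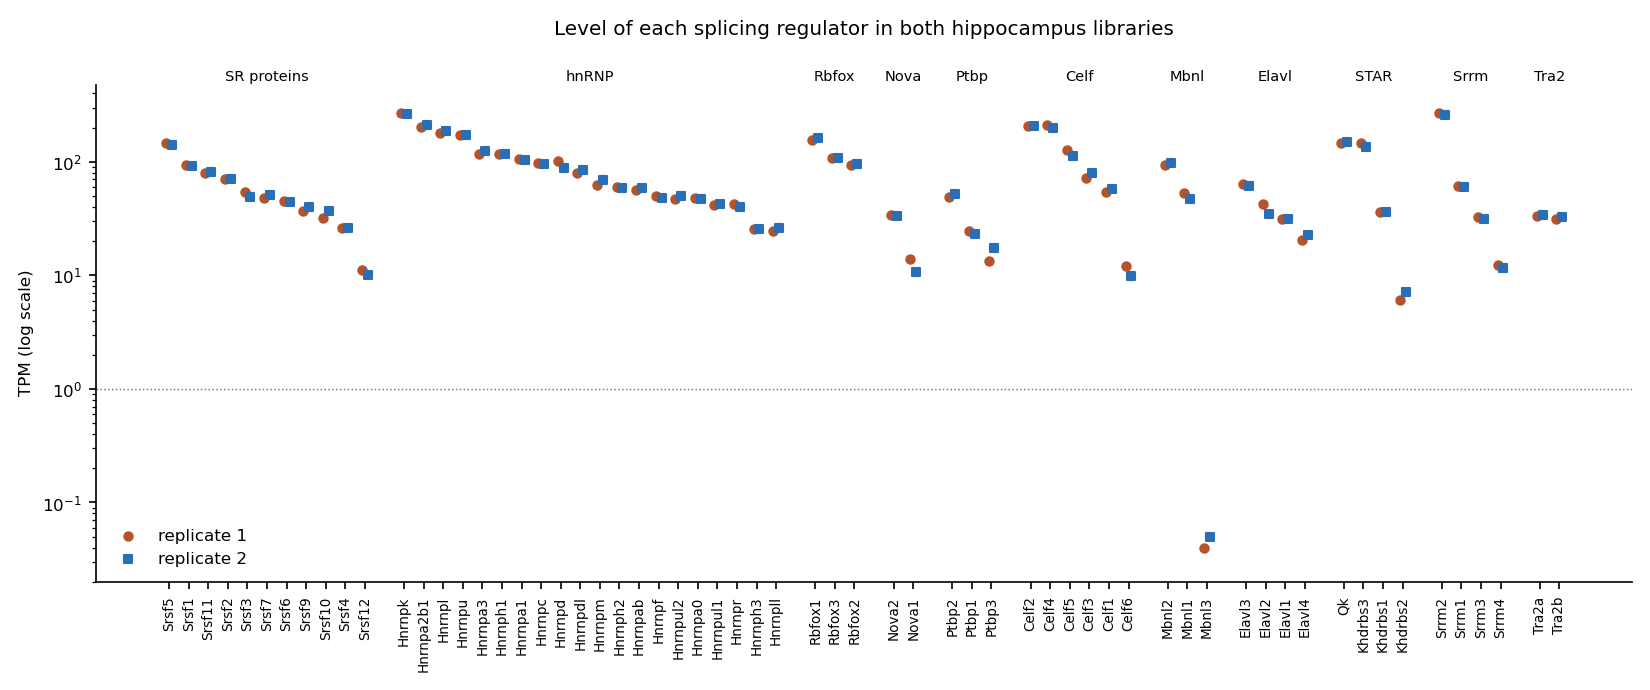
TPM (vertical axis, logarithmic) of each of the 62 genes in replicate 1 (circles) and replicate 2 (squares), grouped by family and ordered by mean level. Levels lie between 6.12 and 270 TPM except for Mbnl3, which sits far below the dotted line at 1 TPM.

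The 3 Rbfox genes, whose proteins bind UGCAUG motifs beside neuronal and muscle exons, were all high. Rbfox1 averaged 158.5 ± 4.14 TPM, Rbfox3 (known as NeuN, the usual antigen for staining neuronal nuclei) averaged 108 ± 0.191 TPM and Rbfox2 averaged 94.3 ± 0.778 TPM (SD, n = 2 each). The order held in both libraries. The log2 ratio of Rbfox1 to Rbfox2, taken within a library with 0.1 TPM added to both genes, was 0.75 ± 0.03, and that of Rbfox3 to Rbfox2 was 0.19 ± 0.01. The authors' TPM intervals of each pair were separate in both libraries, which is the rule for calling a pair here.

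The polypyrimidine tract-binding proteins are a textbook switch: Ptbp1 represses neuronal exons in non-neuronal cells, and Ptbp2 takes over as neurons form. Ptbp2 had 49.3 and 51.8 TPM and Ptbp1 had 24.7 and 22.9 TPM in replicates 1 and 2. Their log2 ratio was 1.08 ± 0.13, a factor of 2.12, with separate intervals in both libraries. It was 2.18 ± 0.20 in the second quantification, where Ptbp2 was again the higher. Ptbp3, known from blood-forming cells, had 13.3 and 17.3 TPM and lay below Ptbp1 by a log2 ratio of -0.65 ± 0.34. There that last ratio was -0.05 ± 0.27, so the order of Ptbp3 and Ptbp1 rests on the quantification.

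Nova proteins bind clusters of YCAY motifs and regulate exons of synaptic genes. Nova2, the main form in cortex and hippocampus, had 33.8 and 33.3 TPM, against 13.9 and 10.6 TPM for Nova1. The log2 ratio was 1.46 ± 0.26 and held in both libraries. In both libraries the deposited TPM of Nova2, Hnrnpul2 and Mbnl3 lay outside its own interval, so the interval rule is weaker for pairs with these genes.

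Celf proteins bind GU-rich RNA in the nucleus and in 3′ untranslated regions. Celf2 and Celf4 stood at 207 ± 2.01 and 205 ± 8.00 TPM, and each exceeded Celf1, the widely expressed member, by a log2 ratio of 1.89 ± 0.04 and 1.87 ± 0.11. Celf5 averaged 119 ± 10.6 TPM and Celf3 75.4 ± 5.25 TPM, also above Celf1 at 56.0 ± 2.21 TPM. Celf6 was the lowest at 11.01 ± 1.64 TPM, with a log2 ratio to Celf1 of -2.34 ± 0.27. All 5 ratios to Celf1 were called.

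The Elavl (Hu) proteins stabilise AU-rich mRNAs and regulate splicing: Elavl1 is ubiquitous and the other 3 are neuronal. Elavl3 had 64.4 and 60.8 TPM, against 31.4 and 31.7 TPM for Elavl1, and their log2 ratio of 0.99 ± 0.07 was called. Elavl2 had 42.6 and 34.8 TPM, but its interval met that of Elavl1 in replicate 2 and the ratio of 0.29 ± 0.22 was not called. Elavl4 was the lowest, with 20.6 and 22.7 TPM and a log2 ratio to Elavl1 of -0.54 ± 0.09. The second quantification turned this ratio round to 0.10 ± 0.09, with Elavl4 at 59.8 and 55.7 TPM.

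Muscleblind proteins, sequestered by CUG repeats in myotonic dystrophy, drive the adult splicing pattern of muscle and brain. Mbnl2, the main brain form, had 94.6 and 97.7 TPM, and Mbnl1 had 53.5 and 47.2 TPM, a called log2 ratio of 0.94 ± 0.16. Mbnl3 was the only one of the 62 genes under 1 TPM. It had 2 and 3 expected counts in replicates 1 and 2, or 0.04 and 0.05 TPM, at or below the limit of 3 counts that a count of 0 allows. The second quantification gave Mbnl3 3.31 and 3.86 TPM, of which 98.5% and 98.8% lay on 1 retained-intron transcript, Mbnl3-206. Transcripts of Mbnl3 typed as protein coding were thus close to 0 in both quantifications.

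Of the STAR family, Khdrbs3 (SLM2) and Khdrbs2 (SLM1) regulate neurexin exons in neurons, Khdrbs1 (Sam68) is ubiquitous and Qk directs splicing in myelinating glia. Khdrbs3 averaged 140 ± 7.72 TPM and Khdrbs1 36.2 ± 0.0141 TPM, with a log2 ratio of 1.95 ± 0.08. Khdrbs2 was the lowest detected gene of the whole set, with 6.12 and 7.10 TPM and a log2 ratio to Khdrbs1 of -2.44 ± 0.15. Qk averaged 148 ± 3.26 TPM. Its log2 ratio of replicate 1 over replicate 2 was -0.09, beside a median of -0.09 for the 6 oligodendrocyte markers, and the part of oligodendrocyte content in it was not tested. Among Qk transcripts with complete reading frames, Qk-206 (319 codons) held 31.4% ± 0.932 of the gene's TPM, Qk-201 (325 codons) held 16.04% ± 0.769 and Qk-204 (341 codons) held 3.90% ± 0.186. These lengths are those of the known protein forms QKI-6, QKI-7 and QKI-5. The leading transcript of the gene, Qk-205, is typed as protein coding but is not among them. It held 34.9% ± 1.54 of the TPM, and 38.4% and 33.0% in replicates 1 and 2 of the second quantification.

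Srrm4 (nSR100) and Srrm3 promote microexons in neurons, and Srrm1 and Srrm2 are general splicing coactivators. Srrm2 averaged 264 ± 7.58 TPM and Srrm1 60.3 ± 0.622 TPM. Srrm3 had 33.0 and 31.6 TPM and Srrm4 12.3 and 11.7 TPM, so that Srrm4 lay below Srrm3 by a log2 ratio of -1.42 ± 0.01. Of the Tra2 pair, which bind GAA-rich exonic enhancers, Tra2b averaged 32.1 ± 0.771 TPM and Tra2a 33.7 ± 0.368 TPM. Their log2 ratio of -0.07 ± 0.02 was not called, and their intervals overlapped.

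SR proteins carry an arginine-serine domain that is phosphorylated by the kinases listed below. Their 11 genes summed to 642 ± 3.03 TPM. Srsf5 was the highest at 143 ± 4.99 TPM and Srsf12 the lowest at 10.6 ± 0.778 TPM. Srsf12 lay below its nearest relative Srsf10, with 34.3 ± 3.57 TPM, by a log2 ratio of -1.69 ± 0.26. The 20 hnRNP genes summed to 1909 ± 5.98 TPM, the largest total of the 11 families. Hnrnpll, a relative of Hnrnpl known from lymphocytes, was their lowest at 25.5 ± 0.962 TPM, with a log2 ratio to Hnrnpl of -2.83 ± 0.01. Hnrnph2 lay below Hnrnph1, both binders of G-tracts, by -0.97 ± 0.01, and Hnrnpul2 exceeded Hnrnpul1 by 0.19 ± 0.02.

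Of the 26 pairs compared, 24 were called, 12 with the first gene higher and 12 with it lower. The SD of a ratio over the libraries ran from 0.01 to 0.34 on the log2 scale. Rbfox3 to Rbfox1 (-0.56 ± 0.04), Srrm3 to Srrm1 (-0.90 ± 0.03), Srrm4 to Srrm1 (-2.32 ± 0.03), Celf3 to Celf1 (0.43 ± 0.04), Celf5 to Celf1 (1.09 ± 0.18) and Mbnl3 to Mbnl1 were among those called. The ratio of Mbnl3 to Mbnl1 depends on the 0.1 TPM added, so no fold is given for it.

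**Figure D2:**
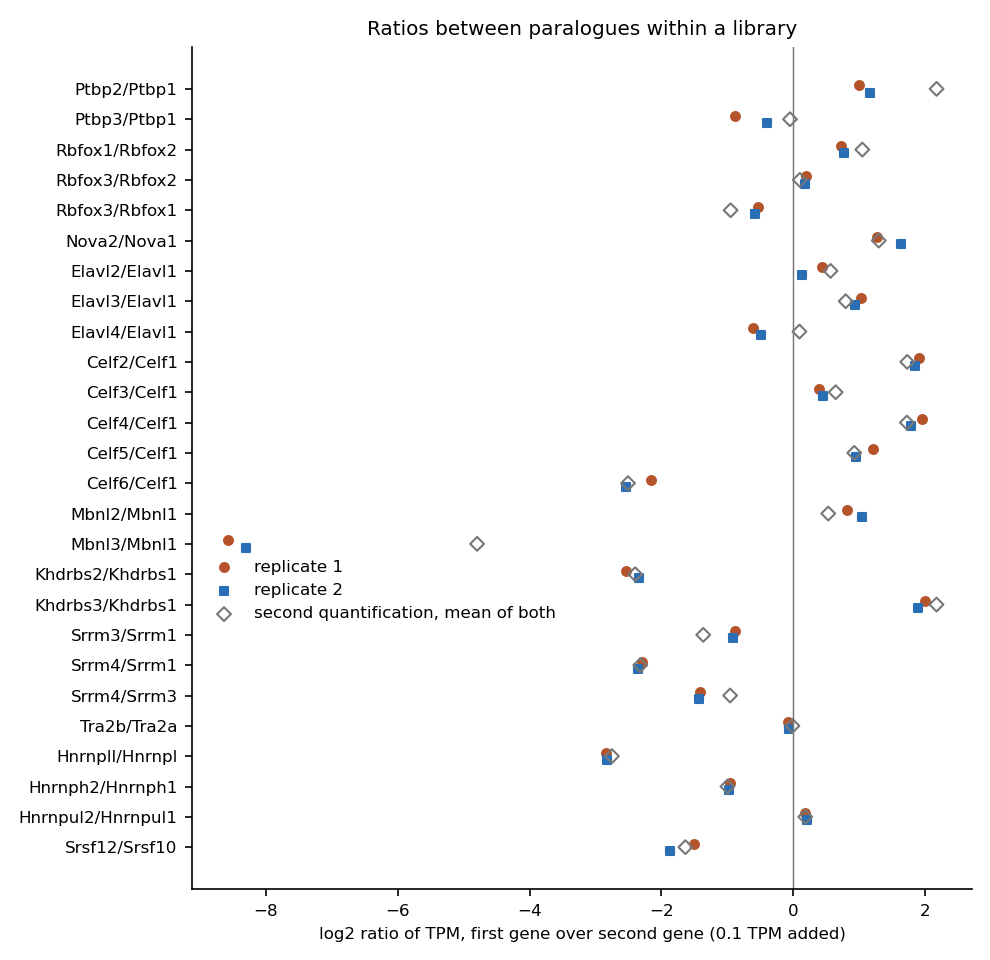
Log2 ratio of TPM (first gene over second gene, 0.1 TPM added to each) for the 26 pairs in replicate 1 (circles) and replicate 2 (squares), with the mean of both libraries in the second quantification (open diamonds). The libraries lie close together for nearly all pairs, and Elavl4/Elavl1 is the called pair whose diamond falls on the other side of 0.

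The annotation gives these genes many transcripts, a median of 8 for the 61 detected genes, beside 5 for detected protein-coding genes. Of the 61, 34 (55.7%) have a transcript typed as a target of nonsense-mediated decay (NMD), beside 28.4% of detected protein-coding genes, and 45 (73.8%) have one typed as retained intron, beside 58.3%. In the 34 genes, the median share of TPM on NMD transcripts was 9.42% ± 0.863 (SD, n = 2), beside 4.59% ± 0.0691 over the 3623 protein-coding genes with such a transcript. The share reached 10% or more in 16 of the 34 (47.1%), against 35.1% of those 3623 genes. For retained introns the median over the 45 genes was 12.1% ± 1.72, beside 13.3% ± 0.481 over 7455 genes. There, 26 of the 45 (57.8%) reached 10%, close to the 60.3% of all such genes. By shares of expected counts the order turned round, with a median of 9.82% ± 0.0857 over the 45 genes, beside 6.92% ± 0.246 over all such genes, and with 46.7% of the 45 at 10% or more, beside 39.3%. These types are labels of the annotation, and a share rests on how the authors' software divided reads among overlapping transcripts.

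Srsf9 had the largest NMD share, with 60.9% of its TPM in replicate 1 and 49.5% in replicate 2. Hnrnpu, which organises nuclear RNA and chromatin, followed with 55.9% and 52.4%. Hnrnpa1, a repressor of exons, had 40.4% and 45.5%, and Hnrnpd (AUF1), which binds AU-rich elements, had 33.7% and 35.9%. Srsf6 had 28.3% and 27.9%. By expected counts the shares were 61.3% for Srsf9, 39.8% for Hnrnpu, 46.1% for Hnrnpa1, 18.4% for Hnrnpd and 16.1% for Srsf6. The second quantification gave means of 51.0%, 40.9%, 37.9%, 17.1% and 32.8% for these genes in that order. Among these genes Hnrnpd thus moved most between the tables. Outside them, Tra2a went from a mean of 21.4% to 44.6% in the second quantification and Hnrnph3 from 2.33% to 36.5%. The order of the leading genes was therefore not fixed.

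Retained-intron transcripts took 73.9% and 74.9% of the TPM of Srsf11, a U2AF-binding SR protein. Celf3 had 47.0% and 44.5%, Ptbp1 had 42.9% and 44.4%, Hnrnph3 had 30.2% and 41.7% and Hnrnpll had 35.0% and 34.2%. In the second quantification Srsf11 stood at 60.2% ± 0.628, Celf3 at 38.8% ± 0.454, Ptbp1 at 29.2% ± 3.74, Hnrnph3 at 18.2% ± 6.05 and Hnrnpll at 35.5% ± 0.0686. Among the 61 detected genes Srsf11 had the highest share in both tables; Mbnl3, under 1 TPM in the first table, is left out here. Total RNA also holds unspliced and nuclear RNA, whose part in these shares was not tested.

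The families differed in this respect. On NMD transcripts lay 21.5% ± 5.93 of the summed TPM of the Tra2 genes, 17.5% ± 1.38 of the STAR genes, 13.2% ± 4.61 of the Ptbp genes, 11.2% ± 0.1002 of the hnRNP genes and 10.2% ± 0.4996 of the SR genes. In the second quantification the shares were 32.7% ± 2.40 for Tra2, 18.5% ± 1.54 for STAR, 6.85% ± 3.48 for Ptbp, 9.43% ± 0.277 for hnRNP and 11.5% ± 0.537 for SR genes, so that Ptbp stood below the hnRNP and SR genes there. For the Rbfox, Nova, Mbnl and Elavl genes the share was 0, because no transcript of theirs is annotated with that type. Retained introns held 29.3% ± 0.679 of the SR total, 27.8% ± 1.94 of the Tra2 total and 27.1% ± 0.331 of the Srrm total. In the second quantification Srrm stood highest at 32.1% ± 0.0639. Tra2 had 28.2% ± 2.46 and SR genes 27.1% ± 0.923 there, and Ptbp rose from 18.1% ± 0.994 to 26.5% ± 1.59. The Rbfox and Elavl shares were 0.703% ± 0.0351 and 2.80% ± 0.220. Of these genes only Rbfox2, Elavl1 and Elavl2 have a transcript annotated as retained intron, so these shares also reflect the annotation.

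**Figure D3:**
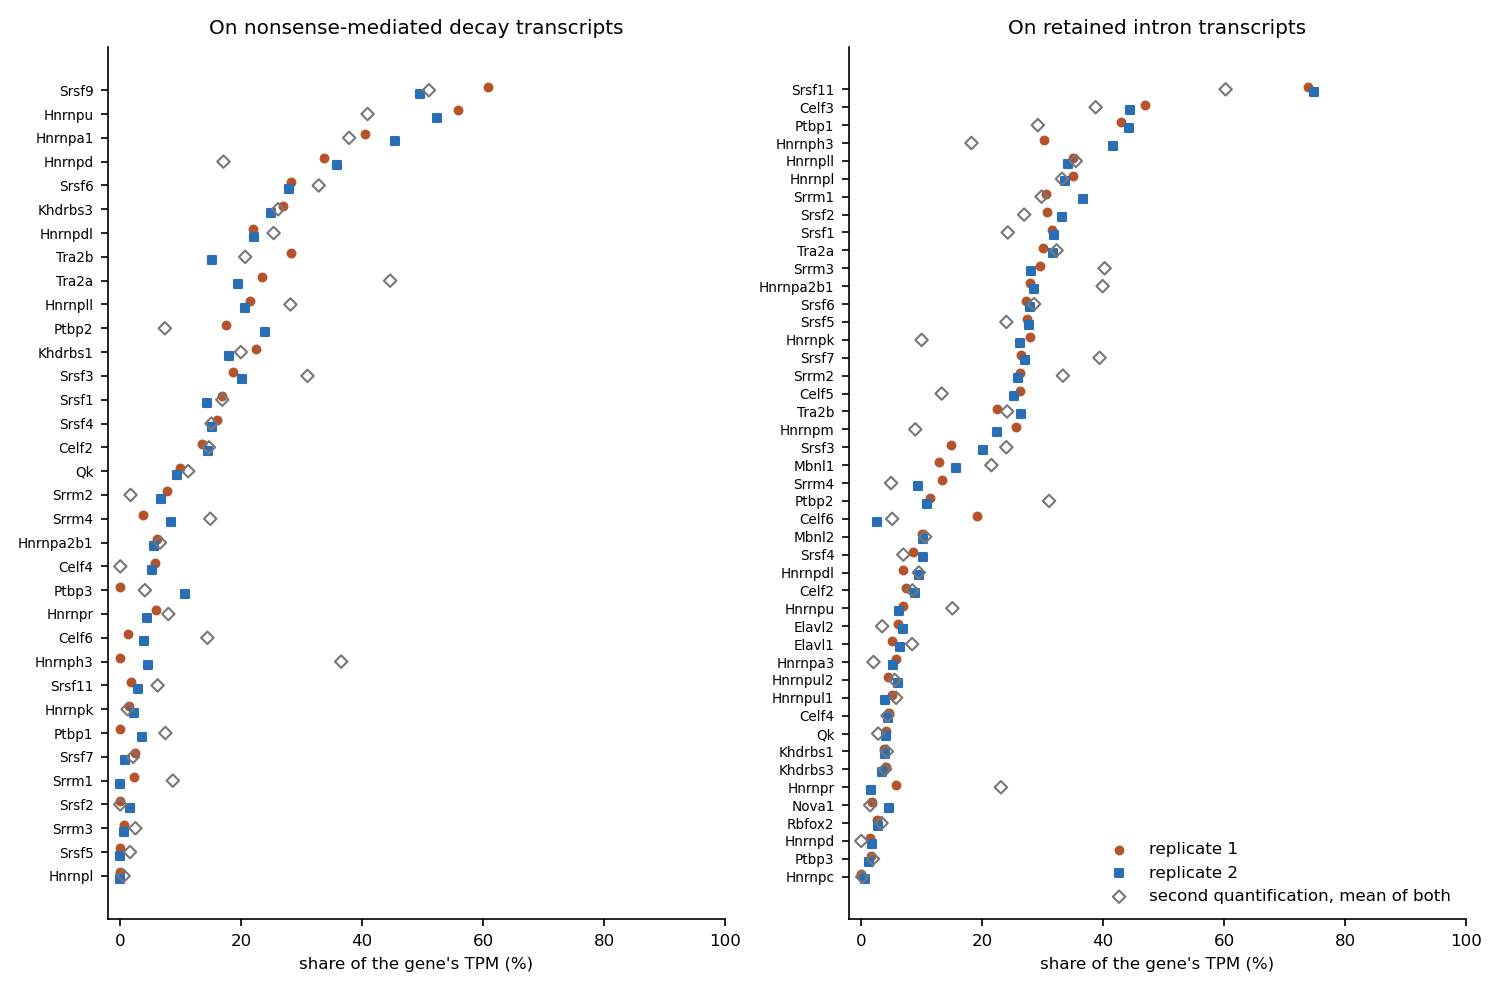
Share of each gene's TPM (%) on transcripts typed as nonsense-mediated decay (left) and retained intron (right), for detected genes with such a transcript, in replicate 1 (circles) and replicate 2 (squares), with the mean of the second quantification (open diamonds). By the filled symbols, Srsf9 and Hnrnpu lead on the left and Srsf11 on the right, and the diamonds lie far from the filled symbols for genes such as Hnrnph3, Tra2a and Hnrnpk.

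Poison exons were looked for in the annotation as internal exons that hold the stop codon of an NMD transcript, occur in no protein-coding transcript, and are skipped by another transcript between the same neighbours. Of the 61 detected genes, 11 have one (18.03%), against 7.87% of detected protein-coding genes. They are Srsf3, Srsf6, Srsf7, Srsf9, Srsf11, Tra2a, Tra2b, Hnrnpl, Hnrnpll, Srrm1 and Srrm2, with 14 such exons among 116 skipped exons. Only a gene with an annotated NMD transcript can have one, and these genes have such transcripts more often (55.7% beside 28.4%). Among genes with an NMD transcript, the counts were 11 of 34 beside 1006 of 3623, so the shares above also reflect the annotation. Inclusion is the share of TPM on transcripts that hold the exon, over those that hold or skip it. It was 10% or more in both quantifications in 6 genes (9.84%), against 2.59% of detected protein-coding genes. Of genes with an NMD transcript, these were 6 of 34 and 331 of 3623. The sequences below show, for those 6, how early in the exon the reading frame ends: each runs from the first base of the exon, 5′ to 3′ on the transcript's strand, to the premature stop codon in capitals (mm10 coordinates, GENCODE M21 transcripts).
Srsf3 (plus strand, chr17:29039454-29039487): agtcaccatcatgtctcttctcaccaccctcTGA
Srsf6 (plus strand, chr2:162932815-162932966): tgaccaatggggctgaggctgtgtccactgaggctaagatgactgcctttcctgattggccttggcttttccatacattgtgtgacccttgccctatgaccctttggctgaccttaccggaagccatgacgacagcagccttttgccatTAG
Srsf9 (plus strand, chr5:115328347-115328428): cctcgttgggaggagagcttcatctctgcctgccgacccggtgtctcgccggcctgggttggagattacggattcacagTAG
Hnrnpll (minus strand, chr17:80044976-80045022): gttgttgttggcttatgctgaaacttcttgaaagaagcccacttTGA
Tra2a (minus strand, chr6:49252965-49253108): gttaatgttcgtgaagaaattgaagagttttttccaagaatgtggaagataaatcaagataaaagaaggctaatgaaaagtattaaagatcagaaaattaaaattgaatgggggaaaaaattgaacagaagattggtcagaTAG
Tra2b (minus strand, chr16:22259181-22259261): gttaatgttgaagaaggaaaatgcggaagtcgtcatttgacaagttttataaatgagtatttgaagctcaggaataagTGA

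The Srsf3 frame ended 34 bases into an exon of 456 bases, the shortest reading of the 6, while that of Srsf6 ran 152 bases into an exon of 268 bases. The exons of Srsf9, Hnrnpll and Tra2a measure 358, 83 and 306 bases. Tra2b has 2 annotated forms of its exon, of 276 and 397 bases, which begin at the same base. Tra2a and Tra2b, whose proteins bind GAA-rich RNA, share the first bases of the shown stretch and both exons are rich in GAA. Overlapping matches of GAA on the transcript's strand came to 10.5 per 100 bases in the Tra2a exon and 10.1 per 100 bases in the 276-base Tra2b exon. The median over 1538 exons of at least 50 bases in the detected genes was 1.85 per 100 bases, and 90.1% of those exons hold at least 1 GAA. The density in the Tra2a exon exceeded that of 99.9% of these exons, and that in the Tra2b exon exceeded 99.8%. TTC, the same motif on the other strand, came to 0.654 per 100 bases in the Tra2a exon and 0 in the Tra2b exon, against a median of 1.54. The Hnrnpll exon held 6.02 GAA per 100 bases, the Srsf9 exon 1.96, the Srsf6 exon 0.746 and the Srsf3 exon 0.658. A match of letters is a description and does not show binding.

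Inclusion of the Srsf9 exon was 68.7% in replicate 1 and 72.1% in replicate 2, and 80.2% and 76.7% in the second quantification. The Srsf6 exon stood at 38.9% and 38.8%, with 45.6% and 46.3% in the second quantification. The Srsf3 exon had 32.3% and 31.4%, against 52.5% and 56.1% there. For these 3 SR genes the libraries differed by less than the tables did. Tra2b, over both forms, had 48.6% and 33.8%, with 47.3% and 40.4% in the second quantification, the widest gap between libraries of the 6. The Tra2a exon had 32.8% and 27.2%, but 63.5% and 62.5% in the second quantification. The Hnrnpll exon had 27.4% and 26.2%, with 37.7% and 34.6% in the other table. The remaining 5 genes were lower: 2.23% ± 1.65 for Srsf7, 5.27% ± 0.902 for Hnrnpl, 0 for Srrm1, at most 14.8% ± 2.20 for the Srrm2 exons and at most 9.32% ± 3.66 for the Srsf11 exons. The 261-base Srrm2 exon fell to 0.478% in the second quantification, and the 109- and 117-base Srsf11 exons stood at 15.6% and 16.2% there.

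**Figure D4:**
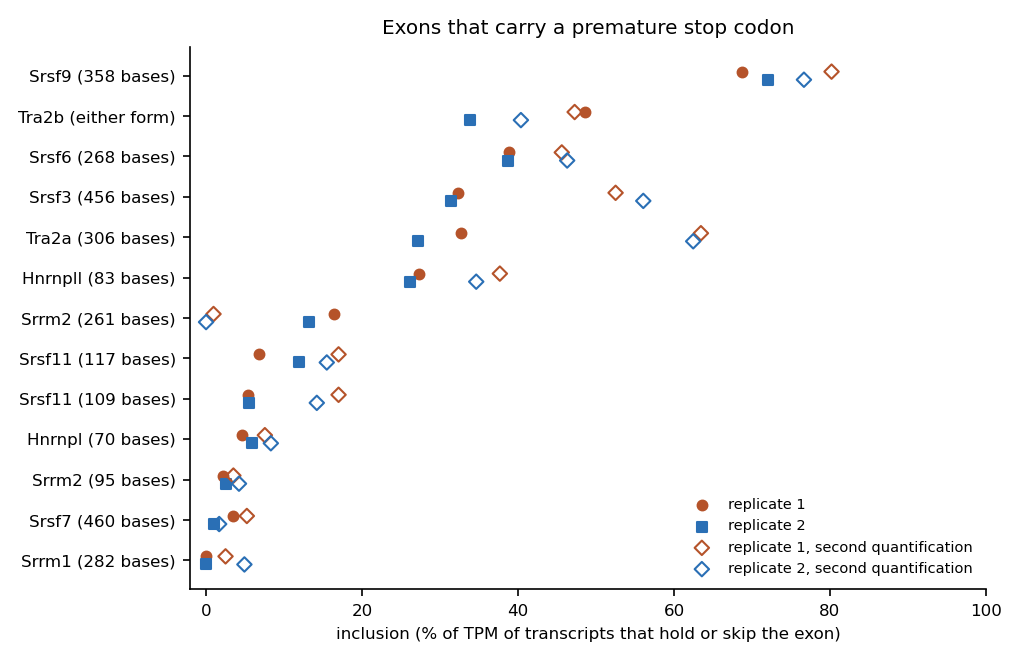
Inclusion (%) of exons with a premature stop codon, per gene and exon length, in replicate 1 and replicate 2 (filled symbols) and in the second quantification (open diamonds, colours as for the libraries). Srsf9 is highest in every library and table, and the open diamonds of Tra2a and Srsf3 lie well to the right of the filled symbols.

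Ptbp1 and Ptbp2 use the reverse design: skipping a coding exon of 34 bases shifts the reading frame, and the annotated transcripts that skip it are typed as NMD. The skipped 34-base exon of Ptbp3 is another one, which differs from that of Ptbp1 at 29 positions; protein-coding transcripts also skip it, and its inclusion was 24.3% ± 4.28, or 38.5% ± 12.6 in the second quantification. The exons of Ptbp1 and Ptbp2 are shown because Ptbp1 protein is known to cause the skipping in both; they differ at 8 of 34 positions, which are in capitals in the Ptbp2 line.
Ptbp1 (plus strand, chr10:79862014-79862047): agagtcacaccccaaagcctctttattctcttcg
Ptbp2 (minus strand, chr3:119724612-119724645): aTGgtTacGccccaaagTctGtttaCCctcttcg

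The Ptbp1 exon was included at 100% and 91.0% in replicates 1 and 2, and at 97.8% and 84.3% in the second quantification. The Ptbp2 exon was included at 76.7% and 69.7%, and at 87.7% and 82.6% in the second quantification. Ptbp2 lay below Ptbp1 in every library and table, though within 2 points in replicate 2 of the second quantification. Replicate 2 was the lower for both genes in both tables.

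Mbnl1 and Mbnl2 share coding exons of 54 and 36 bases that are skipped in part. The exon of 54 bases is known to carry a nuclear localisation signal and to be repressed by Mbnl proteins themselves. The sequences show how alike the paralogues are: capitals mark the bases of Mbnl2 that differ from Mbnl1, 8 of 54 in the first pair and 5 of 36 in the second.
Mbnl1, 54 bases (plus strand, chr3:60614683-60614736): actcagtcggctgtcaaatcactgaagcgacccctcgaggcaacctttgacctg
Mbnl2, 54 bases (plus strand, chr14:120395712-120395765): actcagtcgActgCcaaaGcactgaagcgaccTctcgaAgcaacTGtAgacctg
Mbnl1, 36 bases (plus strand, chr3:60621423-60621458): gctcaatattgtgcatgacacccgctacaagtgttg
Mbnl2, 36 bases (plus strand, chr14:120403336-120403371): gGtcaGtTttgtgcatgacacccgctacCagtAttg

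The 54-base exon was included at 37.5% and 29.5% in Mbnl1 and at 38.9% in both libraries in Mbnl2. In the second quantification it stood at 45.7% ± 2.59 in Mbnl1 and 53.3% ± 0.702 in Mbnl2. The 36-base exon was included at 81.6% and 84.1% in Mbnl1, but at 36.8% and 35.3% in Mbnl2. The second quantification gave 86.9% ± 0.680 in Mbnl1 and 35.6% ± 2.82 in Mbnl2, so this difference between the paralogues was larger than the spread in both tables. Over the detected genes of the set, 29 of 56 skipped coding exons, in 22 genes, lay between 10% and 90% inclusion in both quantifications. Skipped exons of other genes were not counted in this way, so partial inclusion is not shown to be particular to these genes. In Qk the 117-base exon stood at 63.6% ± 1.62, and in Rbfox1 the 54-base exon at 98.1% ± 0.204.

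Most genes had 1 transcript that led in both libraries: this held for 57 of the 60 detected genes with 2 or more transcripts (95%), against 88.8% of such protein-coding genes. The exceptions were Celf1, Hnrnpab and Hnrnpc. Nova2 is counted among the 57 although its 2 transcripts tied at 50% in both libraries and both quantifications, so that neither led. The leading transcript was typed other than protein coding in 4 of the 60 (6.67%), against 6.03% of protein-coding genes, a share near the background. These were Srsf9-205 and Hnrnpu-206 (NMD), Srsf11-208 (retained intron) and Srsf5-206 (processed transcript). The same transcript led in both libraries and both quantifications in 35 of the 60 genes, counting the tie of Nova2, and the other 25 include Hnrnpa2b1, Hnrnpl, Srsf5, Hnrnpa3 and Hnrnph1. No share over all protein-coding genes is given for this count, so it cannot be called high or low. For Hnrnpl the leader Hnrnpl-202 held 40.2% ± 1.42 in the first table and 0 in the second. Statements on single transcripts are therefore less firm than those on genes.

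The libraries agreed closely for the splicing regulators. None of the 61 genes at a mean of 1 CPM or more had a log2 ratio of replicate 1 over replicate 2 of at least 1 in size, against 0.529% of the 15509 genes. With so low a share over all genes, none among 61 is close to the background. The median size of the ratio was 0.05, beside 0.08 over all genes, and the signed medians were 0.01 in both. The sets differ in level, with a median of 54.6 TPM here beside 14.6 TPM over detected protein-coding genes. Sizes were not compared at equal level. The ratio was positive in 32 genes and negative in 29. The authors' TPM intervals were separate with replicate 1 above in 1 gene, Celf5, against 2.12% of genes, and with replicate 2 above in none, against 2.26%. Celf5 had 127 TPM in replicate 1 (interval 117.7 to 129.4) and 112 TPM in replicate 2 (104.1 to 115). Its log2 ratio was 0.14 in both quantifications. The other large positive ratios were those of Elavl4 (0.24), Srsf12 (0.17), Elavl2 (0.16) and Celf6 (0.13). On the negative side stood Ptbp3 (-0.20), Srsf10 (-0.11), Srsf7 (-0.10), Hnrnpm (-0.09) and Qk (-0.09). For Elavl4 the counts were higher in replicate 1 while the TPM was higher in replicate 2, since TPM also depends on which transcripts the reads were assigned to. The 4 pan-neuronal markers had a median ratio of 0.08 and the 5 astrocyte markers one of -0.16, and their part in these ratios was not tested.

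**Figure D5:**
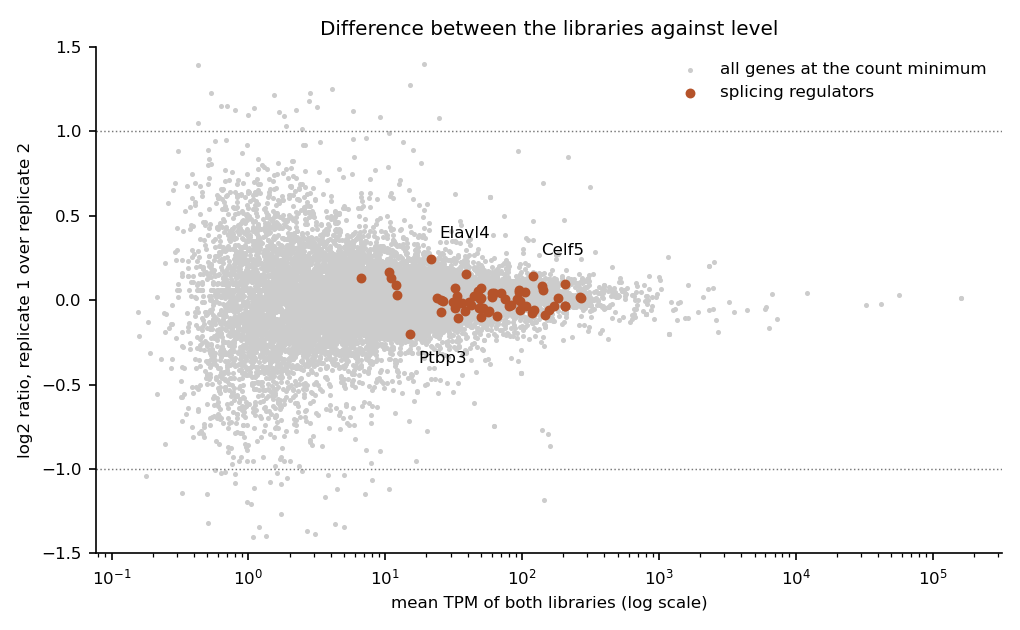
Log2 ratio of replicate 1 over replicate 2 against mean TPM (logarithmic axis) for all 15509 genes at the count minimum (grey) and the 61 splicing regulators among them (orange). The regulators lie between -0.20 and 0.24, inside the dotted lines at -1 and 1, and 26 genes beyond the plotted range of 1.5 in size are not shown.

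The machinery that these regulators act on was present throughout. All 32 listed spliceosome core genes were detected, led by Snrpn, which encodes the imprinted neuronal SmN protein and overlaps Snurf, at 310 ± 13.2 TPM and Snrnp70 at 195 ± 8.15 TPM. All 9 SR protein kinases were detected, with Clk1 at 62.0 ± 0.219 TPM and Srpk2 at 56.0 ± 0.693 TPM the highest. All 10 listed factors of nonsense-mediated decay were detected, among them the kinase Smg1 at 34.6 ± 1.44 TPM. The 8 exon junction genes were led by Acin1 at 94.1 ± 0.587 TPM and Rnps1 at 50.5 ± 2.51 TPM. Of 42 other RNA-binding regulators 38 were detected, led by the helicase Ddx5 at 316 ± 13.4 TPM and Matr3 at 216 ± 4.22 TPM. The 4 below 1 TPM were Rbm20, known from heart muscle, with 0.80 and 0.88 TPM, Rbm47 with 0.91 and 0.68 TPM, and the epithelial regulators Esrp1 and Esrp2, with Esrp1 at 0 and 0.02 TPM and Esrp2 at 0 and 0.26 TPM. None of the listed genes at the count minimum had a log2 ratio between libraries of at least 1 in size. Intervals were separate for Snrpn, higher in replicate 1, and for Ddx5, higher in replicate 2. The TPM of Snrpn lay outside its own interval in both libraries, so the interval rule is weaker for it.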

How the data were processed

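The authors deposited, per the file headers, a gene table and a transcript table for each library with an expected count, a TPM value and a score, the bounds of a TPM interval. A further deposited transcript table holds an estimated count and a TPM value and is called the second quantification. It was summed per gene. The assembly is mm10, per the labels, and the annotation M21, per the notes beside the files. Software, and the treatment of CAST/EiJ alleles, are not given in the sources used here. The 26345 entries that name no annotated gene (spike-ins and entries with a bare number) were left out; their share of counts was 0.378% in replicate 1 and 0.368% in replicate 2.

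Expected counts were rounded, and log2 ratios used TMM factors (edgeR 4.0.16, R 4.3.3), 0.5 added to counts and a minimum mean of 1 CPM. DESeq2 1.42.0 size factors were an alternative. Shares, exons and ratios of paralogues were computed with Python 3.11.15, pandas 2.3.3 and numpy 2.4.6, and exon sequences were cut from the GENCODE transcripts. The functions were tested on simulated data. As 1 group was sequenced in 2 libraries, no test can reach 0.05 and no p-values were computed. Expected counts of a gene limit the precision of its level; intervals cover counting and assignment error only.

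The genes named are the 10 highest, the highest and lowest of each family, those under 1 TPM, the 26 pairs, the 5 largest ratios in each direction, the 5 highest NMD and retained-intron shares, and the 2 highest of each pathway list, of which 1 gene is not reported here. Exons shown or described, and their motif counts, were picked with values in view. The members, pairs and lists were chosen with earlier results of these data known.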

Additional observations from a re-analysis of the deposited data

How the results depend on the processing

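Detected genes numbered 61 at a threshold of 5 TPM and 62 in the second quantification. None of the splicing regulators had a log2 ratio between libraries of at least 1 in size under DESeq2 size factors, no filter on low counts, 5 added to counts or the second quantification, and the median ratio lay within 0.01 of 0 under each. The second quantification gave a median level of 96.7 TPM in place of 54.6 TPM and a median NMD share of 13.98% in place of 9.42%. It also gave 8 genes in place of 4 with a leading transcript typed other than protein coding, for which no share over all genes is given. The shifts in level and NMD share were general: the median ratio of second to first TPM was 1.67 for these genes and 1.71 for detected protein-coding genes, whose median NMD share was 7.77% in place of 4.59%. It turned the log2 ratio of Elavl4 to Elavl1 round to 0.10, and 18 other pair ratios moved by more than their spread but kept the sign of their mean, with Ptbp3 to Ptbp1 at -0.24 and 0.15 in replicates 1 and 2. Shares of expected counts gave medians of 5.32% for NMD and 9.82% for retained introns, beside 2.40% and 6.92% over all genes with such transcripts. With a log2 ratio of at least 0.25 also asked for, the count of genes with separate intervals was 0. Without replicate 1 or 2 the detected genes stayed at 61, the median TPM ran from 54.5 to 54.7, the pairs with the first gene higher stayed at 13, and the NMD and retained-intron medians ran from 8.81% to 10.03% and from 10.9% to 13.3%. Exon inclusion in the second quantification was chosen after seeing the data: 12 of 14 exons with a premature stop moved by more than their spread. The cause of these shifts was not tested. No paired analysis was possible because the libraries form 1 group.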
